A study of Homo sapiens with 15 samples.

Results

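The growth arrest genes studied here are 10 stress-response genes that are often targets of p53: the GADD45 family (GADD45A, GADD45B and GADD45G), the sestrins (SESN1, SESN2 and SESN3), BTG1 and BTG2, the p53 ubiquitin ligase MDM2, and TP53INP1. They were listed by name, but with earlier results of these data known, so the counts of members below are descriptions. Of the 10 genes, 9 had annotated features on the array, 22 features in all, among 18334 genes measured; no feature annotated to BTG2 was analysed here. The ratio of a gene was the mean of its features. GADD45A, BTG1, SESN2, SESN3 and TP53INP1 each had a single feature, so their values could not be compared between features.

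The measurements came from K562, a human erythroleukemia line derived from chronic myeloid leukemia that lacks functional p53. Cells of the DNSZ stock received 1 mM valproic acid, an anticonvulsant that inhibits histone deacetylases, or no agent, and RNA was collected 2, 6, 10, 48 and 72 h later. Each of 15 two-colour arrays compared treated with untreated cells of the same time, with 3 replicates at each time that were grown from separate thawings of this single line. The dyes were exchanged in the third replicate of every time. Replicate ratios are given below in the order 1, 2, 3. All values are log2 ratios of treated to untreated RNA; a value above 0 means more transcript in treated cells, and a fold assumes that the deposited ratios are in base 2.

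The GADD45 proteins are small nuclear proteins that bind PCNA, the cyclin-dependent kinase inhibitor p21 and the CDK1 kinase, and switch on the stress kinases p38 and JNK through MAP3K4. Sestrins restrain the growth regulator mTORC1 through the GATOR complexes when amino acids are scarce, and BTG proteins slow proliferation by recruiting the CCR4-NOT deadenylase to messenger RNAs. Although p53 drives most of these genes after DNA damage, NF-kB, FOXO factors and ATF4 also act on some of them, and inhibitors of histone deacetylases are known to raise several members in other cells.

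A gene was called when limma's moderated test gave a Benjamini-Hochberg adjusted p under 0.05 over all 18334 genes; every adjusted p below is of this kind unless another family is named, and errors are SEs of the fit. The fit held 5 time means and a dye term, so that both dye orientations count equally and the fitted mean can lie apart from the plain mean of the 3 arrays. Because signal intensities were not analysed here, no expression level is given and the line's marker genes could not be checked as levels. Precision is limited by the number of arrays. Array medians over genes lay between −0.001 and 0.029 and their SDs between 0.161 and 0.411, and the SE of a ratio had a median of 0.0602. One array stood furthest apart, the 2 h array of replicate 3. It correlated with the average of replicates 1 and 2 at −0.089 over all features and at 0.535 over genes. At the other times replicate 3 correlated with that average at 0.305 to 0.574 over features and 0.674 to 0.827 over genes. Replicates 1 and 2 correlated with each other at 0.73 to 0.864 over features and 0.668 to 0.897 over genes. Over features, replicate 3 thus agreed less at every time. Turning the sign of the 2 h array of replicate 3 left 0 genes called at 2 h, so each result at 2 h rests on its deposited direction. In bulk RNA of this kind, less transcript per cell and fewer cells that hold it cannot be told apart.

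Promoter windows are shown for the 2 genes called higher late than early that have an entry (GADD45B and BTG1), for SESN2, which was called the other way, and for GADD45G, a family member with no call at any time. They are the 250 bases before the start site in the RefSeq promoter table, on GRCh38.p14, read 5′ to 3′ along the gene. Capitals mark the GC box GGGCGG, the CCAAT box and the E box CACGTG on either strand. GADD45B lies at chr19:2475877-2476126 on the plus strand, BTG1 at chr12:92145847-92146096 on the minus strand, SESN2 at chr1:28259268-28259517 on the plus strand and GADD45G at chr9:89604762-89605011 on the plus strand.
GADD45B: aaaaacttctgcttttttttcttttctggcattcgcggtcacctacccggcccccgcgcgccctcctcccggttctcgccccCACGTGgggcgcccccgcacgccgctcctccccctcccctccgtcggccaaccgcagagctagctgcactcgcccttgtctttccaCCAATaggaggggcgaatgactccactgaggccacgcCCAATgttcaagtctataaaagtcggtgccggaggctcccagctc
BTG1: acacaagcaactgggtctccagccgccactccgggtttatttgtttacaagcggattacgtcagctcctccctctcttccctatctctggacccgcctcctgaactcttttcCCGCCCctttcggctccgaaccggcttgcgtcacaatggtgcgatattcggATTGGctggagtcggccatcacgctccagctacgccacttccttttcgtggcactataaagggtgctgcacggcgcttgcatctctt
SESN2: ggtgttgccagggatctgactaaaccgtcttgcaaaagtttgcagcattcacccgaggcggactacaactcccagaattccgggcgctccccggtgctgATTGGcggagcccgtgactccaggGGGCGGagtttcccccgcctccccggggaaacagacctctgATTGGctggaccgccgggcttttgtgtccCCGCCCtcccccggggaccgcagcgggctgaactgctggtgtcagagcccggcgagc
GADD45G: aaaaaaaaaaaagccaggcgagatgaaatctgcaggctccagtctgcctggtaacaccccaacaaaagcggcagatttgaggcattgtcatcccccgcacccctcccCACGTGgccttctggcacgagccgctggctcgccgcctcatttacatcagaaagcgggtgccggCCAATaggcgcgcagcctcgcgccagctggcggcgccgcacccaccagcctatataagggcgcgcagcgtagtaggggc

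All 4 windows held a CCAAT box, which 32.0% of the 35116 windows in the table hold: GADD45B had 2, at −82 and −45 from the start site, SESN2 had 2, at −151 and −86, BTG1 had 1 at −87 and GADD45G had 1 at −79. The E box, found in 6.34% of all windows, stood at −168 in GADD45B and −143 in GADD45G; its letters read the same on both strands and were counted once. The GC box, found in 42.6%, occurred 2 times in SESN2 and 1 time in BTG1. The TATA box TATAAA, found in 10.7%, lay at −31 in GADD45B and −33 in BTG1 and was not among the letters of the SESN2 and GADD45G windows. The octamer ATTTGCAT, the cyclic AMP element TGACGTCA and the amino acid response core TGATGCAA were searched on both strands too and were in none of the 8 members' windows; 1.63%, 1.65% and 0.772% of all windows hold them. GC content was 63.2% for GADD45B, 56.4% for BTG1, 65.6% for SESN2 and 61.6% for GADD45G, beside a median of 58.0%. GADD45A and TP53INP1 are named only.

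Growth arrest genes were called higher in treated than in untreated cells at every time. At 2 h, 4 of 9 measured members were called higher (GADD45B, SESN1, SESN2 and TP53INP1), beside 4.82% of all genes. At 6 h GADD45A joined these 4, giving 5 of 9 beside 19.0%. At 10 h the count was 4 of 9 (GADD45A, GADD45B, SESN1 and TP53INP1) beside 18.1%, at 48 h 6 of 9 (these 4 with BTG1 and SESN3) beside 23.3%, and at 72 h 5 of 9 (the same without SESN3) beside 22.1%. MDM2 alone was called lower, at 10 h and 48 h, where 11.6% and 14.6% of all genes were. At 2, 6 and 72 h limma called 0 members lower, and 0 had an unadjusted p under 0.05 in that direction, beside 1.53%, 9.66% and 13.6% of all genes. The median ratio of the 9 members was 0.02 at 2 h, 0.35 at 6 h, 0.27 at 10 h, 0.39 at 48 h and 0.32 at 72 h, while the median of all genes stayed between 0.005 and 0.013.

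**Figure D1:**
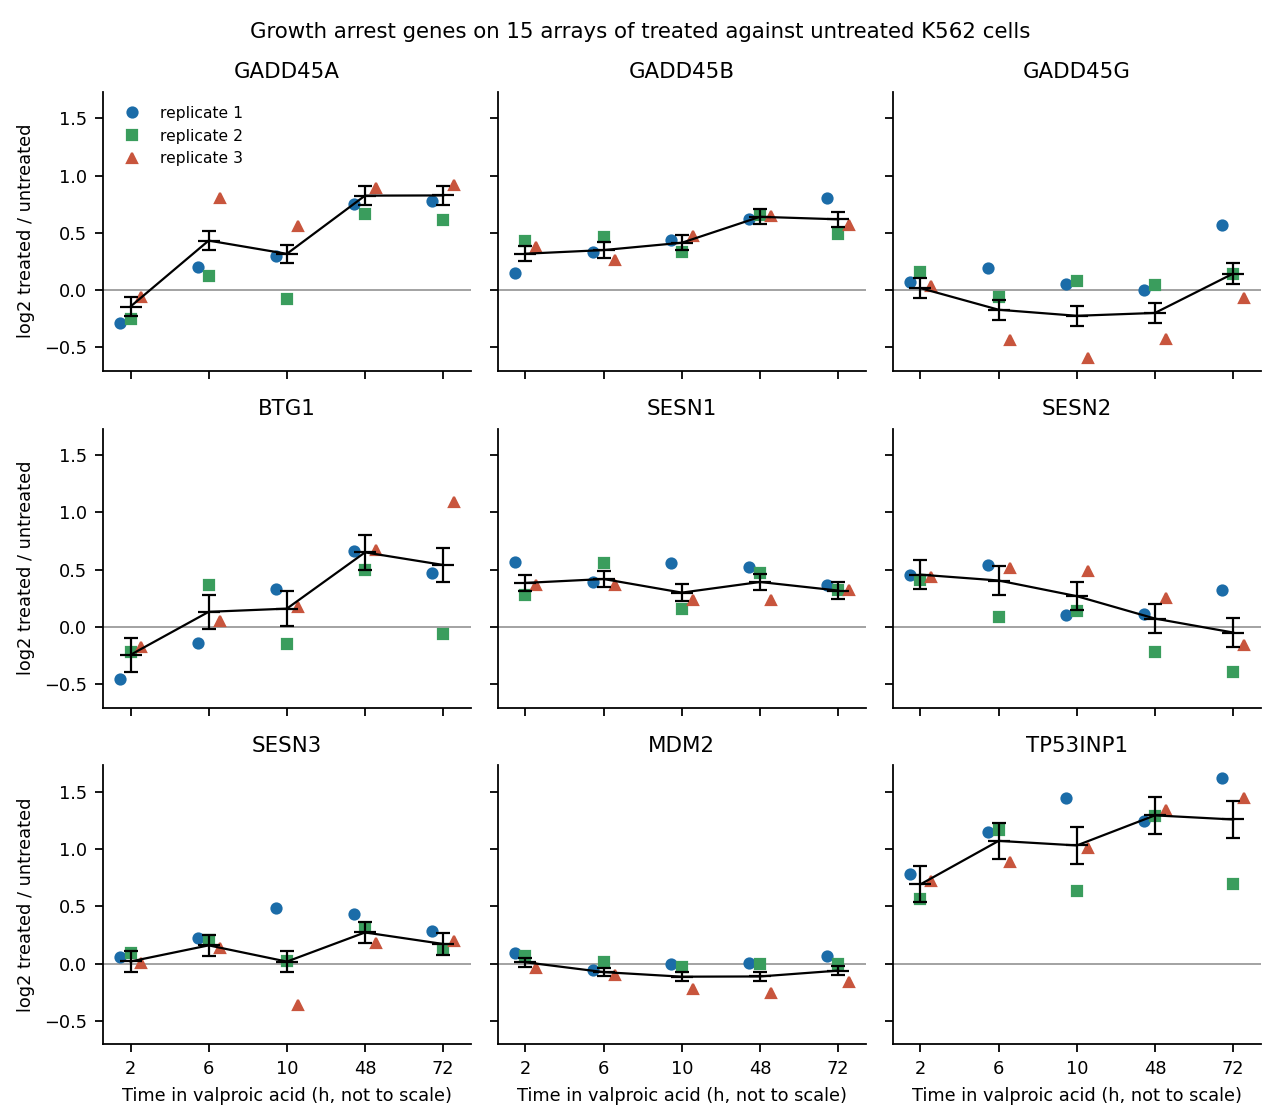
Each panel plots the log2 ratio of treated to untreated K562 cells (vertical axis) of 1 growth arrest gene against hours in valproic acid (horizontal axis, not to scale). Coloured symbols are the 3 replicate arrays, and black bars with lines are the fitted means ± SE; TP53INP1 was above 0 on all 15 arrays, GADD45A and BTG1 went from below 0 at 2 h to 0.83 and 0.65 at 48 h, and SESN2 went from 0.46 to −0.05.

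GADD45A, the DNA damage-inducible founding member of the family, had the widest range of fitted ratios over the times. Its ratios were −0.28, −0.26 and −0.06 at 2 h, then 0.20, 0.12 and 0.80 at 6 h and 0.30, −0.08 and 0.56 at 10 h. All 3 arrays were below 0 at 2 h and above 0 at 6 h, with replicate 3 the highest at every time. At 48 h the arrays read 0.75, 0.67 and 0.89, and at 72 h 0.78, 0.61 and 0.92, so that every late array lay above every array of 2 and 10 h. The fitted ratio was −0.15 ± 0.08 at 2 h (adjusted p = 0.424), and GADD45A rose 1.35-fold at 6 h (0.43, adjusted p = 0.00127), 1.24-fold at 10 h (0.32, 0.00914) and 1.77-fold at both 48 h (0.83, 4.49e-06) and 72 h (0.83, 4.62e-06). The time order was therefore 2, 10, 6, 48 and 72 h, with 48 and 72 h at nearly one value. Between neighbouring times, tested after the values were seen, the ratio climbed by 0.58 ± 0.11 from 2 to 6 h (adjusted p = 0.0174) and by 0.51 ± 0.11 from 10 to 48 h (0.0204), where 2.42% and 3.57% of all genes climbed. From 6 to 10 h it differed by −0.12 (0.788) and from 48 to 72 h by 0.00 (0.995). The call at 10 h ended without the 10 h array of replicate 1 or replicate 3 (0.24 to 0.27, adjusted p 0.0929 to 0.117), without all of replicate 1 (0.24, 0.134) or 3 (0.11, 0.434), without the dye term (0.26, 0.169) and with arrays scaled to 1 spread (0.27, 0.0621). That at 6 h ended without all of replicate 3 (0.16, 0.233) and with each time fitted alone without a dye term (0.38, 0.144). The difference from 2 to 6 h lost its call without any array of 2 h or the 6 h array of replicate 1 or 3, and that from 10 to 48 h without the 10 h array of replicate 2 or 3 or the 48 h array of replicate 1 or 2, with adjusted p of 0.0519 to 0.0911 and 0.0559 to 0.0824, and without the dye term (0.147 and 0.183). Neither call held without replicate 1 or 3, nor the later one without replicate 2 or with arrays scaled, while the calls at 48 and 72 h held without each array or replicate number.

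GADD45B, the member best known as a target of NF-kB and TGF-beta signalling, was above 0 on all 15 arrays. Its arrays read 0.15, 0.43 and 0.38 at 2 h, then 0.33, 0.46 and 0.26 at 6 h and 0.44, 0.33 and 0.48 at 10 h. At 48 h they read 0.62, 0.66 and 0.65, the tightest set of this gene, and at 72 h 0.80, 0.49 and 0.57. All late arrays were above all early ones. GADD45B was 1.25-fold higher at 2 h (0.32 ± 0.07, adjusted p = 0.0123), 1.27-fold at 6 h (0.35, 0.00161), 1.33-fold at 10 h (0.41, 0.000475), 1.56-fold at 48 h (0.64, 8.41e-06) and 1.53-fold at 72 h (0.62, 1.21e-05). The call at 2 h ended without the 2 h array of replicate 2 (0.26, 0.112) or replicate 3 (0.28, 0.205), and without all of replicate 2 (0.117) or 3 (0.136). The calls from 6 to 72 h held without each array or replicate number.

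The 2 features of GADD45B share a transcript accession but did not read alike. Among 31332 single features, the first was called at every time, from 0.53 at 2 h (adjusted p = 0.0106) through 0.61 at 6 h (0.0011) and 0.78 at 10 h (0.000181) to 1.12 at 48 h and 1.01 at 72 h. The second read 0.10 (0.357), 0.09 (0.257) and 0.05 (0.517) at 2, 6 and 10 h and 0.16 (0.0243) and 0.22 (0.00333) at 48 and 72 h. The gene's early calls thus rest on 1 of its 2 features, and its mean understates that feature.

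GADD45G, the third member, was not called at any time, and its arrays disagreed. They read 0.07, 0.16 and 0.04 at 2 h, then 0.20, −0.06 and −0.44 at 6 h and 0.05, 0.08 and −0.60 at 10 h. At 48 h they read 0.00, 0.04 and −0.43, and at 72 h 0.57, 0.14 and −0.07. Replicate 3, with exchanged dyes, was the lowest at every time. The fit gave GADD45G 0.02 at 2 h (adjusted p = 0.984), −0.17 at 6 h (0.182), −0.23 at 10 h (0.0749), −0.20 at 48 h (0.0973) and 0.14 at 72 h (0.249), each ± 0.09. Its 2 features have different accessions: one ranged from −0.43 to 0.28 over the times and the other from −0.06 to 0.00, and neither was called. At 10 h the ratio passed without the 2 h array of replicate 3 (−0.24, 0.0321) or the 72 h array of replicate 2 (−0.23, 0.0399), and at 48 h without the former (−0.22, 0.0423); with array weights it passed at 10 h (−0.28, 0.0271). Without all of replicate 3 it passed in the opposite direction at 72 h (0.36, 0.0345).

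BTG1, an antiproliferative partner of the CCR4-NOT deadenylase that is abundant in resting cells, was called at the 2 late times. Its arrays read −0.46, −0.22 and −0.17 at 2 h, then −0.14, 0.36 and 0.06 at 6 h and 0.34, −0.15 and 0.17 at 10 h. They read 0.66, 0.50 and 0.68 at 48 h and 0.47, −0.06 and 1.10 at 72 h. The arrays of 48 h lay close together above every earlier one, while those of 72 h spread over the widest range of any time. The fitted ratio was −0.25 ± 0.15 at 2 h (adjusted p = 0.51), 0.13 at 6 h (0.608) and 0.16 at 10 h (0.501), and BTG1 rose 1.57-fold at 48 h (0.65, 0.00411) and 1.45-fold at 72 h (0.54, 0.0133). The 72 h call ended without its array of replicate 1 (0.52, 0.0549) or of replicate 3 (0.24, 0.338), and without all of replicate 3 the value was 0.21 (0.462). The 72 h call also ended without all of replicate 1 (0.102), and the 48 h call, which held without each single array, ended without all of replicate 1 (0.59, 0.0702). With the spread of the arrays scaled to 1 value, BTG1 was called lower at 2 h (−0.39, 0.0427).

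SESN1, a sestrin induced by p53 and FOXO factors, had nearly one ratio at all 5 times. Its arrays read 0.57, 0.28 and 0.37 at 2 h, then 0.39, 0.56 and 0.36 at 6 h and 0.56, 0.16 and 0.24 at 10 h. They read 0.53, 0.47 and 0.23 at 48 h and 0.36, 0.32 and 0.32 at 72 h, so that all 15 were above 0 and the times overlapped. SESN1 was 1.30-fold higher at 2 h (0.38 ± 0.07, adjusted p = 0.00664), 1.34-fold at 6 h (0.42, 0.000866), 1.23-fold at 10 h (0.30, 0.00749), 1.31-fold at 48 h (0.39, 0.000905) and 1.25-fold at 72 h (0.32, 0.00411). Both of its features were above 0 at every time, one at 0.42 to 0.57 and the other at 0.18 to 0.29; the weaker missed the threshold over single features at 10 h (0.0851). The call at 2 h ended without its array of replicate 1 (0.32, 0.0815) or 3 (0.36, 0.118), that at 10 h without its array of replicate 1 (0.20, 0.0879) or 3 (0.30, 0.06), and that at 72 h without its array of replicate 3 (0.27, 0.0678). Without all of replicate 1 the calls at 2 h (0.32, 0.0671) and 10 h (0.20, 0.096) ended, and without replicate 3 that at 2 h (0.42, 0.0668). The calls at 6 and 48 h held without each array or replicate number.

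SESN2, the leucine-sensing sestrin that ATF4 and NRF2 induce, was called early and not late. Its arrays read 0.45, 0.41 and 0.43 at 2 h, then 0.54, 0.08 and 0.52 at 6 h and 0.10, 0.14 and 0.49 at 10 h. They read 0.11, −0.22 and 0.25 at 48 h and 0.32, −0.39 and −0.16 at 72 h. The 3 arrays of 2 h stood close together and above every array of 48 and 72 h. SESN2 was 1.37-fold higher at 2 h (0.46 ± 0.12, adjusted p = 0.0486) and 1.32-fold at 6 h (0.41, 0.0264), and the ratios at 10, 48 and 72 h were 0.27 (0.133), 0.07 (0.717) and −0.05 (0.813). The call at 2 h was marginal: it ended without any of 10 single arrays (adjusted p 0.0541 to 0.249), among them the 3 arrays of 2 h. The adjusted p was 0.057 with the thawing as a random block and 0.0854 without the dye term. It was 0.0506 with the median of each gene's features, 0.0517 with arrays centred and 0.0507 with limma's robust eBayes. Over single features it was 0.0529. The 6 h call ended without its array of replicate 1 (0.30, 0.18) or 3 (0.38, 0.153). Without replicate 2 or 3 the 2 h call ended (0.102 and 0.212), and without replicate 3 the 6 h call did (0.31, 0.219). The 10 h ratio passed without the 72 h array of replicate 1 (0.28, 0.0255), without all of replicate 1 (0.31, 0.0295) and with array weights (0.32, 0.038), and without replicate 1 the 72 h ratio passed as lower (−0.27, 0.0352).

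SESN3, a sestrin controlled by FOXO factors, passed once. Its arrays read 0.05, 0.09 and 0.00 at 2 h, then 0.23, 0.21 and 0.14 at 6 h and 0.49, 0.02 and −0.36 at 10 h, where they spread far apart. They read 0.43, 0.31 and 0.18 at 48 h and 0.28, 0.13 and 0.20 at 72 h, all above 0. SESN3 was 1.21-fold higher at 48 h (0.27 ± 0.09, adjusted p = 0.0365), and the other times gave 0.02 (0.982), 0.16 (0.254), 0.02 (0.918) and 0.17 (0.188). The 48 h call ended without any of its 3 arrays (0.24 to 0.30, adjusted p 0.075 to 0.152) or without all of replicate 2 (0.123). Without the 10 h array of replicate 1, SESN3 passed at 6 h (0.17, 0.035) and 72 h (0.18, 0.0208) and for late minus early (0.22, 0.00718).

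TP53INP1, a nuclear protein that promotes cell cycle arrest and autophagy downstream of p53 and p73, had the highest ratio of the 9 members at every time. Its arrays read 0.78, 0.57 and 0.72 at 2 h, then 1.15, 1.17 and 0.89 at 6 h and 1.45, 0.63 and 1.01 at 10 h. They read 1.25, 1.29 and 1.34 at 48 h and 1.62, 0.70 and 1.45 at 72 h; replicate 2 was the lowest at 2, 10 and 72 h. TP53INP1 was 1.62-fold higher at 2 h (0.69 ± 0.16, adjusted p = 0.0193), 2.11-fold at 6 h (1.07, 0.00027), 2.05-fold at 10 h (1.03, 0.000322), 2.46-fold at 48 h (1.30, 3.2e-05) and 2.40-fold at 72 h (1.26, 4.37e-05). At 2 h 0.524% of all genes had a ratio as high, and at 48 h 1.6% did. The call at 2 h ended without any of its 3 arrays (0.65 to 0.75, adjusted p 0.0639 to 0.189), or without all of replicate 1 (0.0731) or 3 (0.151), and those from 6 to 72 h held without each array or replicate number.

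MDM2, the ubiquitin ligase that degrades p53 and is itself a p53 target, stayed close to 0. Its arrays read 0.09, 0.07 and −0.04 at 2 h, then −0.06, 0.02 and −0.10 at 6 h and 0.00, −0.03 and −0.22 at 10 h. They read 0.01, 0.00 and −0.26 at 48 h and 0.07, −0.01 and −0.16 at 72 h, with replicate 3 the lowest at every time. The fitted ratios were 0.01 at 2 h (adjusted p = 0.963), −0.07 at 6 h (0.184) and −0.06 at 72 h (0.248), and the 2 ratios that passed were −0.11 at 10 h (0.0382) and −0.11 at 48 h (0.0333), each ± 0.04. Without the dye term these became −0.08 at both times, and neither passed, whether with no block (adjusted p = 0.395 at 10 h and 0.374 at 48 h) or with the thawing as a fixed block (0.125 and 0.116). Neither call held without any 1 of the replicate numbers; without replicate 3 the values were −0.02 (0.874) and 0.00 (0.981). Among single arrays, the 10 h call ended without any array of that time or the 2 h array of replicate 1 (−0.13 to −0.10, 0.052 to 0.246), and the 48 h call without any array of that time (−0.13 to −0.07, 0.0508 to 0.329).

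The mean of MDM2 pools 11 features, of which 10 share 1 transcript accession. Those 10 had medians of 0.02, −0.02, −0.11, −0.10 and −0.06 at 2, 6, 10, 48 and 72 h, and at 6 h they ranged from −0.27 to 0.05. The lone feature of another accession was lower on 3 of 3 arrays at every time. It read −0.18 at 2 h (adjusted p = 0.0329 over single features), −0.38 at 6 h (4.7e-05), −0.26 at 10 h (0.000651), −0.15 at 48 h (0.0163) and −0.11 at 72 h (0.073). Its late mean exceeded its early mean by 0.143 (0.0186 over single features). The same difference was −0.162 to 0.115 for the 10 features of the shared accession and was called in none of them. Averaging by accession first, a choice made after these features were seen, gave MDM2 −0.21 at 6 h (0.000484). The mean of the gene therefore weights 1 accession 10 times the other, and which transcript each stands for was not examined.

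**Figure D2:**
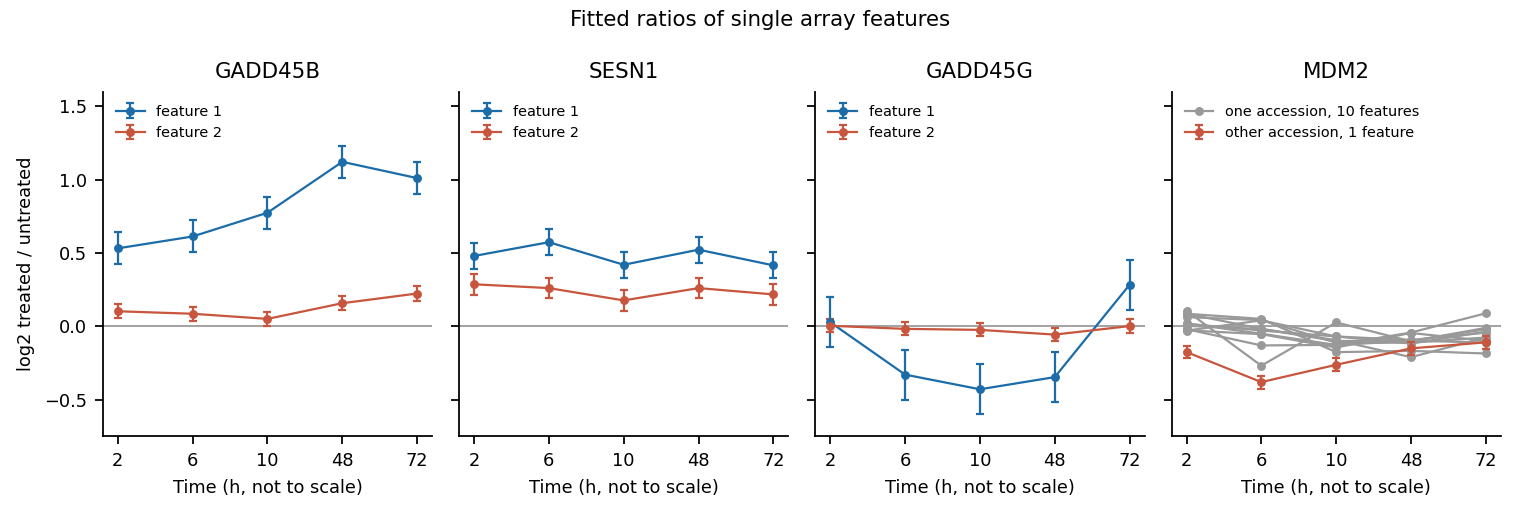
Fitted log2 ratios of treated to untreated cells (vertical axis) for single array features of 4 growth arrest genes against hours in valproic acid (horizontal axis, not to scale); bars are SEs, drawn for all but the 10 grey MDM2 features. The first GADD45B feature reached 1.12 and the second 0.22, and the lone MDM2 feature reached its lowest value, −0.38, at 6 h.

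The dye term was itself called for 3 of 9 members, GADD45A (−0.17 ± 0.04, adjusted p = 0.00763), GADD45G (0.21 ± 0.04, 0.00403) and MDM2 (0.09 ± 0.02, 0.00556), beside 20.1% of all genes. Because the dyes were exchanged in the third thawing alone, dye and thawing cannot be told apart. These are the members in which replicate 3 was the highest or the lowest array at every time.

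The response of 4 members differed between hours and days of treatment. The late mean (48 and 72 h) exceeded the early mean (2, 6 and 10 h) by 0.63 ± 0.07 for GADD45A (adjusted p = 4.31e-05), 0.58 ± 0.14 for BTG1 (0.00714) and 0.27 ± 0.06 for GADD45B (0.00544), which makes 3 of 9 members higher late beside 14.9% of all genes. The difference was −0.37 ± 0.11 for SESN2 (0.0298), 1 of 9 beside 11.0%. SESN1 gave −0.01 ± 0.07 (0.925), MDM2 −0.03 (0.623), GADD45G 0.10 ± 0.08 (0.432), SESN3 0.16 ± 0.08 (0.214) and TP53INP1 0.35 ± 0.14 (0.1), the last of which passed with the thawing as a fixed block in place of the dye term (0.0487), with array weights (0.41, 0.02), without all of replicate 2 (0.42, 0.00878) and without the 10 h array of replicate 1 (0.42, 0.0329) or the 72 h array of replicate 2 (0.49, 0.00548). The SESN2 difference ended without any of 8 single arrays (−0.36 to −0.30, adjusted p 0.0504 to 0.0954). It also ended without all of replicate 2 (−0.29, 0.119) or 3 (−0.33, 0.225). The GADD45A difference held without each array or replicate number. Those of BTG1 and GADD45B held without each single array but not without all of replicate 1 (0.55, 0.0861 for BTG1 and 0.20, 0.0517 for GADD45B) or replicate 3 (0.44, 0.115 and 0.28, 0.0674). GADD45B had 0.12 (0.312) with arrays scaled to 1 spread. Over single features, the late minus early difference of GADD45B was called in its first feature (0.43, 0.00675) but not in its second (0.11, 0.0942).

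Over the 5 times as a whole, the moderated F test called 3 of 9 members, GADD45A (adjusted p = 0.000214), BTG1 (0.0368) and GADD45B (0.0463), beside 23.3% of all genes. The adjusted p of GADD45B was 0.0552 without the dye term and 0.0622 with the thawing as a fixed block in its place. It was 0.479 with arrays scaled to 1 spread. The GADD45B call also ended without any of 11 single arrays (0.0569 to 0.101) and without replicate 2 (0.082). The BTG1 call ended without any of 10 single arrays (0.0508 to 0.112) and without the dye term (0.069). Without replicate 1 neither passed (0.185 and 0.268), nor without replicate 3 (0.312 and 0.245). SESN2 had an adjusted p of 0.15, TP53INP1 of 0.24 and SESN1 of 0.824. TP53INP1 passed with array weights (0.0283), without replicate 2 (0.0245) and without the 72 h array of replicate 2 alone (0.0231). SESN2 passed with arrays scaled to 1 spread (0.0245), without replicate 1 (0.0231) and without the 72 h array of replicate 1 alone (0.00727). Among the 8 members other than GADD45A, limma called 0 of 32 differences between neighbouring times, and 3 had an unadjusted p under 0.05. Of all genes, 2.42% were called as rising and 0.955% as falling from 2 to 6 h, and 3.57% and 1.37% from 10 to 48 h. From 6 to 10 h limma called 1 of 18334 genes, and from 48 to 72 h it called 0. The count of 0 is therefore near the share of all genes.

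**Figure D3:**
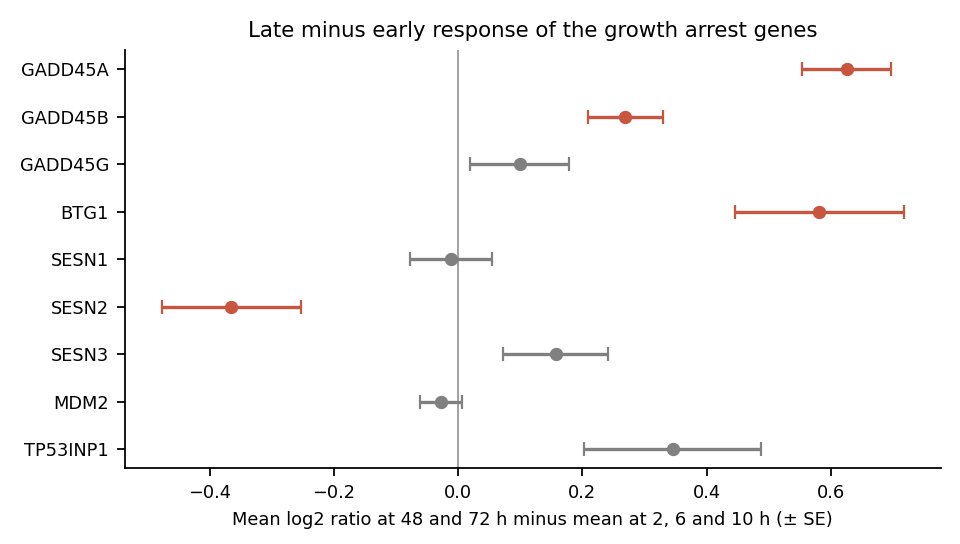
Late mean log2 ratio (48 and 72 h) less the early mean (2, 6 and 10 h) on the horizontal axis, for the 9 measured growth arrest genes; points are fitted differences, bars SEs, and coloured points passed limma's test at an adjusted p under 0.05. GADD45A, BTG1 and GADD45B lie to the right of 0 and SESN2, at −0.37, to the left.

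Genes of the surrounding pathways were counted from lists chosen with earlier results of these data known; the counts are descriptions and are given in the order 2, 6, 10, 48 and 72 h. Of all genes, 4.82%, 19.0%, 18.1%, 23.3% and 22.1% were higher at these times and 1.53%, 9.66%, 11.6%, 14.6% and 13.6% lower. Of 31 other p53 targets measured, 6, 8, 9, 9 and 9 were higher and 0, 2, 2, 3 and 2 lower, which at 72 h is 29.0% and 6.45% beside 22.1% and 13.6% of all genes. CDKN1A, which encodes p21, rose from 0.54 at 2 h (adjusted p = 0.0115) to 1.64 at 72 h (2.27e-07), where TP53INP1 read 1.26. The kinase gene PLK3 read 0.56 at 2 h (0.00113) and 0.98 at 72 h (1.46e-06), TP53I11 1.53 at 72 h (0.000335), and PMAIP1, which encodes the cell death protein NOXA, 0.96 at 48 h (1.52e-05). Of 18 p53 regulators, 3, 7, 5, 5 and 5 were higher and 0, 5, 0, 2 and 4 lower, at 72 h 27.8% and 22.2% beside 22.1% and 13.6%. Among these, HIPK2, a kinase of p53, read 0.82 at 48 h (3.24e-07), PPP1R13L, an inhibitor of p53, 0.98 at 6 h (2.16e-05), PRKCD 0.67 at 6 h (3.85e-06) and the checkpoint kinase gene CHEK1 −0.54 at 72 h (0.00109).

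Of 11 measured genes listed as GADD45 partners or stress kinase targets, 2, 2, 2, 1 and 1 were higher and 0, 2, 3, 3 and 4 lower. At 72 h these were 9.09% and 36.4%, beside 22.1% and 13.6% of all genes. CDKN1A was the higher one at 72 h. NPM1, a nucleolar protein that binds GADD45A, fell by 0.72 at 72 h (−0.72, adjusted p = 5.58e-07), TDG, the glycosylase of active demethylation, read −0.45 at 6 h (0.000169), and MAP2K3, a kinase upstream of p38, 0.42 at 2 h (0.000925) and 0.13 at 72 h (0.13). Of 17 NF-kB feedback and immediate early genes, 6, 9, 7, 10 and 10 were higher and 0, 2, 1, 1 and 2 lower, at 72 h 58.8% and 11.8% beside 22.1% and 13.6%. NFKBIE, an inhibitor of NF-kB, read 0.73 at 2 h (5.67e-05) and 1.23 at 72 h (4.54e-08), and IER3 0.71 (0.00492) and 1.59 (1.04e-06). The immediate early genes FOS and EGR1 reached 2.11 (6.04e-09) and 1.87 (1.26e-06) at 72 h.

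The list of ATF4 and unfolded protein response targets, to which SESN2 is close by regulation, had 0, 4, 3, 1 and 1 of 19 genes higher and 0, 2, 4, 10 and 11 lower, at 72 h 5.26% and 57.9% beside 22.1% and 13.6% of all genes. Its median was 0.11 at 2 h and −0.46 at 72 h. ASNS, asparagine synthetase, read 0.05 at 2 h (adjusted p = 0.944) and −1.24 at 48 h (3.63e-06), and TRIB3 −1.07 at 48 h (1.34e-05). The serine synthesis genes PSAT1 and PHGDH were higher at 6 h, at 0.55 (0.000509) and 0.75 (0.00859), and read −0.73 (3.15e-05) and 0.12 (0.692) at 48 h. Of 29 sestrin partners and genes of AMPK, GATOR and mTORC1, 2, 5, 7, 9 and 10 were higher and 1, 7, 7, 9 and 8 lower, at 72 h 34.5% and 27.6% beside 22.1% and 13.6%. Named by the size of their ratio were the Rag GTPase genes RRAGD, 0.96 at 6 h (2.54e-05), and RRAGA, 0.77 at 72 h (1.34e-05), the NRF2 inhibitor KEAP1, −0.82 at 6 h (0.000102), and the mTOR subunit MLST8, −0.79 at 48 h (2.71e-05).

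Of 20 FOXO genes and targets, 4, 5, 4, 7 and 9 were higher and 0, 0, 1, 3 and 1 lower, at 72 h 45.0% and 5.0% beside 22.1% and 13.6% of all genes. FOXO1 read 0.94 at 2 h (adjusted p = 5.21e-05) and 0.75 at 72 h (2.4e-05), the cyclin gene CCNG2 0.76 at 6 h (9.47e-05), PDK4 0.60 at 72 h (1.69e-05) and TXNIP 0.57 at 72 h (3.99e-07). Of the 17 other BTG, TOB and CCR4-NOT genes, 4, 3, 3, 5 and 4 were higher and 0, 4, 5, 5 and 3 lower, at 72 h 23.5% and 17.6%, near the 22.1% and 13.6% of all genes. BTG3, a relative of BTG1, had its highest ratio at 2 h (0.35, 0.000675) and read 0.15 at 72 h (0.023), whereas BTG1 passed late. The deadenylase genes differed: CNOT8 read 0.41 at 6 h (0.000414) and CNOT7 −0.48 at 10 h (0.000226), and the scaffold gene CNOT1 −0.33 at 48 h (0.00537).

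Markers of blood lineages were counted in the same arrays. Of 13 erythroid markers, 0, 0, 1, 3 and 3 were higher and 1, 3, 4, 4 and 3 lower, of 10 megakaryocyte markers 0, 0, 0, 2 and 3 were higher and 0 lower at each time, and of 11 myeloid markers 0, 1, 1, 3 and 3 were higher and 0, 0, 0, 1 and 0 lower. At 72 h 23.1%, 30.0% and 27.3% of the 3 lists were higher, near the 22.1% of all genes. The shares lower at 72 h were 23.1%, 0% and 0%, beside 13.6%. Of the erythroid markers 30.8% were lower at both 10 and 48 h, beside 11.6% and 14.6% of all genes. The erythroid factor gene KLF1 was lower from 2 h (−0.44, adjusted p = 0.00949) through 48 h (−0.84, 9.51e-06), TFRC read −0.71 at 10 h (0.000224) and 0.62 at 72 h (0.000404), and RHAG read −0.24 at 10 h (0.00629) and 0.62 at 72 h (2.95e-06). HBZ read −0.90 at 72 h (0.0198). The myeloid factor gene CEBPA was highest at 10 h (0.67, 5.33e-05) and read 0.29 at 72 h (0.0128), whereas LYZ read 0.15 at 10 h (0.187) and 1.76 at 72 h (7.21e-09), and ITGAM 0.24 (0.132) and 0.82 (7.43e-05). The megakaryocyte marker GP9 read 0.19 at 10 h (0.0638) and 0.51 at 48 h (0.00012). The late calls of GADD45A, GADD45B and BTG1 fall in the same arrays as the late values of LYZ, ITGAM and GP9, and the part of these markers in them was not tested.

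**Figure D4:**
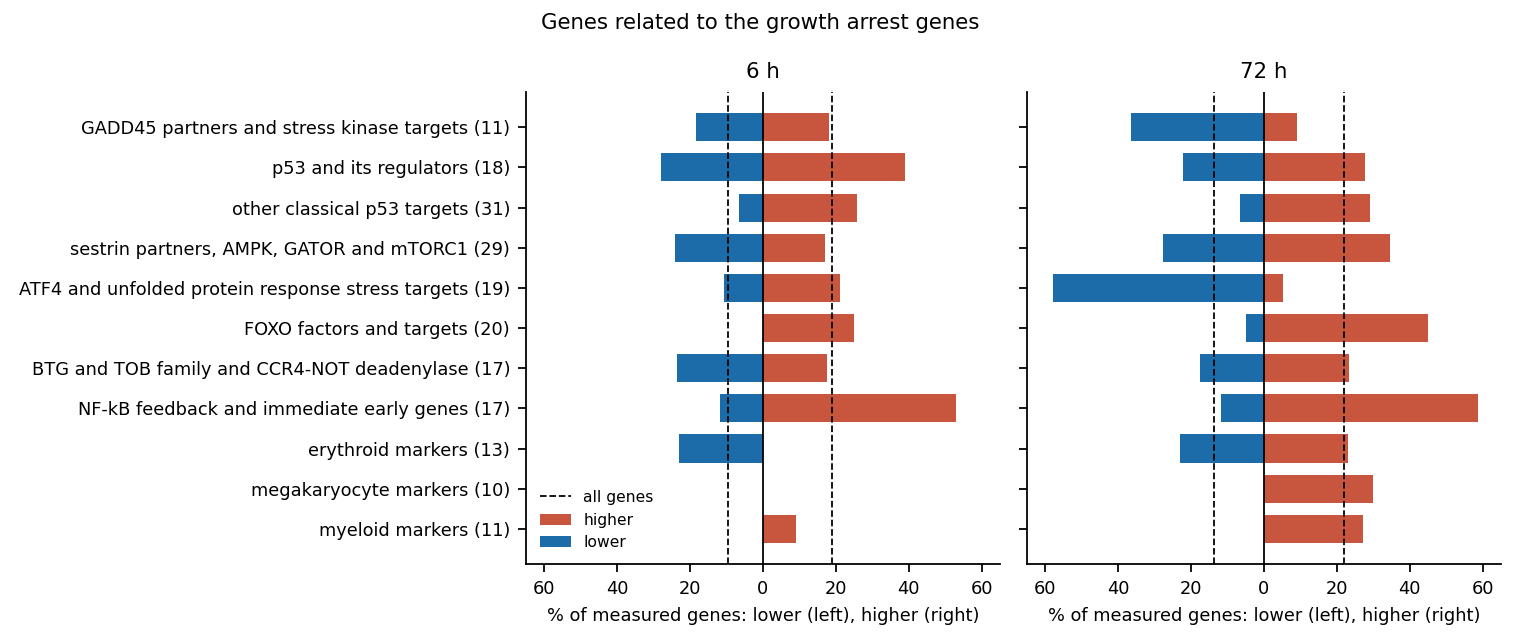
Percent of the measured genes of 11 related lists (number of genes in brackets) that limma called higher (to the right of 0) or lower (to the left) at 6 h and 72 h; dashed lines give the percent of all 18334 genes. The ATF4 list extends to 57.9% lower at 72 h, and the NF-kB and immediate early list to 52.9% higher at 6 h.

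For the 3 members that the F test called, the genes most alike were sought among 500 genes that passed the same test and ranged over at least 1 between times. Over the 15 arrays, GADD45A correlated most with RHOBTB2 (Pearson r = 0.917) and PKDCC (0.913), GADD45B with FOXA2 (0.907) and SLAMF1 (0.901), and BTG1 with CRYBG1 (0.917) and CTSB (0.912). RHOBTB2 went from 0.54 at 2 h to 1.66 at 72 h, SLAMF1 from −0.26 to 0.66 and CTSB from 0.00 to 0.98. The 15 points share thawings, dyes and times, so each r describes a common course and no more.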

How the data were processed

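The authors deposited values that, per the labels, compare treated with untreated cells on 2-colour arrays, and that were read here as log2 ratios because the base of the logarithm is not stated. The submitters' processing notes name limma, with no role or version. Background correction and normalization are not given in the sources used here. The table held 45220 features on 15 arrays, with values from −4.09 to 4.83 and 0 missing. Of these features, 31332 had 1 gene symbol, 93 had several and 13795 had none; the last 2 kinds were left out. The gene identifiers of 31291 were found, and their symbols updated, through the reference gene table, and the features of each of 18334 genes were averaged (7759 genes had more than 1).

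The fit used limma 3.58.1 under R 4.3.3 (lmFit, eBayes). Each of the 5 times had a mean beside a dye term, with 9 residual and 3.47 prior degrees of freedom, and Benjamini-Hochberg adjustment of p across the 18334 genes. The procedure was also run on 10 simulated data sets with 200 changed genes in each. Their noise was drawn independently for each gene and array around the dye effect. They held no other correlation within a thawing and no unequal spread of arrays, so they cannot check the fit against these. The contrast late minus early and an F test of each later time minus 2 h came from the same fit. Alternatives changed the probe summary, dye term, thawing block, array weights, scaling, centring, pooling of spread and the sign of the 2 h array of replicate 3, and left out arrays.

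The main fit held no replicate block. Per the labels each replicate came from its own thawing, so the numbers pair arrays across times, and the pairing entered as alternatives. Deviations of arrays with the same number correlated on average at 0.183 (from −0.108 to 0.379), 0.153 (−0.0318 to 0.355) and 0.525 (0.38 to 0.635) for replicates 1, 2 and 3, and with the dye term the random block correlation was −0.0542. The fixed block took the place of the dye term.

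The members and gene lists were chosen with earlier results of these data known. All members are named at every time; from each list up to 4 genes that passed at some time with 1 sign on its 3 arrays, by the size of the ratio; and for each member called by the F test the 2 genes with the highest correlation. Promoter letters come from RefSeq on GRCh38.p14; 8 of 10 members had an entry.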

Additional observations from a re-analysis of the deposited data

Results flagged for a closer look

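For 4 growth arrest genes the ratio of treated to untreated cells differed between the late times (48 and 72 h) and the early ones (2, 6 and 10 h) in limma's test of that difference. GADD45A was higher late by 0.63 on the log2 scale, BTG1 by 0.58 and GADD45B by 0.27, and SESN2 differed by −0.37. Of these, SESN2 went the opposite way to the others and depended most on single arrays.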

How the results depend on the processing

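With the sign of the 2 h array of replicate 3 turned, members higher at 2 h went from 4 to 0, all genes called there from 1165 to 0, members lower at 10 and 48 h and lower late than early each from 1 to 0, and members called by the F test from 3 to 1. Calls of higher ratios at later times ended too: SESN2 at 6 h (0.38, adjusted p = 0.163) and SESN1 at 10 h (0.27, 0.0914) and 72 h (0.29, 0.0612). Array weights gave 3253 genes at 2 h, 2 members lower at 10 h and 5 members by the F test. Scaling arrays to 1 spread gave 3848 genes and 1 member lower at 2 h. The F test count stayed at 3 under scaling, but with SESN2 in place of GADD45B. Each time fitted alone and without the dye term, 2 choices together, gave 3 members higher at 6 h and 2 at 10 h, 0 lower at 10 h and at 48 h, and 2712 and 2999 genes at 10 and 72 h, from 5438 and 6559. Dropping the dye term alone gave 0 members lower at 10 and 48 h, 1 by the F test, and 4565 and 5534 genes at 10 and 72 h, and the median of a gene's features gave 0 lower at 48 h. Averaging by accession, chosen after seeing the data, gave 1 member lower at 6 h.

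With the thawing as a fixed replicate block in place of the dye term, again 2 choices together, 0 members were lower at 10 h and at 48 h, 2 passed the F test, and apart from MDM2 at those times, GADD45B by the F test and TP53INP1 late minus early, no member's call changed; as a random block SESN2 at 2 h lost its call. Leaving out arrays or replicate numbers gave 0 to 4 members higher at 2 h, 3 to 6 at 6 h, 2 to 5 at 10 h, 5 to 6 at 48 h and 3 to 6 at 72 h. Members lower were 0 to 2 at 10 h and 48 h and 0 to 1 at 72 h; genes called were 398 to 1453, 3655 to 5711, 3389 to 5874, 5111 to 7283 and 4213 to 6596 at the 5 times. Members higher late were 1 to 5, lower late 0 to 1, and by the F test 1 to 5. MDM2 at 48 h ranged from −0.13 to 0.002 and changed sign without replicate 3. The count by the F test and the count lower late than early each moved in 10 of the 18 settings that left out arrays, the losses through GADD45B, BTG1 and SESN2 and the rise to 5 through GADD45G and TP53INP1. The cause of these changes was not tested. Settings other than left-out arrays kept 986 values on their side of the threshold, weakened 40 and strengthened 9. Leaving out arrays kept 1649, weakened 112, strengthened 20 and reversed 1. The values kept include those that the main fit did not call. The number of arrays, and intensities that were not analysed, limit what can be said of weak features.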
